A study of Mus musculus with 6 samples.

Results

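The genes described here are 9 homeobox genes, Alx1, Alx4, Dlx3, Dlx5, Dlx6, Msx1, Msx2, Prrx1 and Prrx2, of 39179 genes listed in the series. They were chosen by gene symbol and with their measured RPKM in all 6 libraries already known, so their differences between conditions are a description. Where members are counted past a threshold on p, the count is set beside that of all genes and is not a test of the members. RNA was measured by RNA-seq in Ocy454 cells, a mouse osteocytic cell line, to compare the transcriptional response to parathyroid hormone (PTH) with that to YKL-05-093, an inhibitor of the salt-inducible kinases. The study reports that this compound also acts on other kinases in vitro. Of the genes it measured in cells deficient in SIK2 and SIK3, most lost their response to the compound and some kept it. Which kinase lies behind a difference described here was not tested. Cells were kept at 37 °C for 14 days and then received vehicle, PTH 1-34 at 1 nM or YKL-05-093 at 0.5 µM for 4 h, with 2 libraries per condition. The labels give the vehicle as PBS with HCl, whereas the study's methods name DMSO as the solvent of its compounds for cell work, and an effect of solvent cannot be told apart from that of YKL-05-093 here. The labels give no genetic change in any group, 1 cell line in culture is the whole model, and both treatments were compared with the same vehicle libraries. The labels do not say that the 2 libraries of a condition came from separate cultures beyond calling them replicates, so the errors measure the spread between these libraries.

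Homeobox genes encode transcription factors that bind DNA through a homeodomain, a helical fold that reads short AT-rich sites. The ALX, DLX, MSX and PRRX families act in the mesenchyme of the limb, skull and jaw, where DLX3, DLX5 and DLX6 favour osteoblast differentiation, MSX1 and MSX2 hold back or time differentiation, and PRRX1 and PRRX2 mark limb and skeletal progenitors. ALX factors shape the face and skull. DLX genes lie in the genome as pairs that converge on each other and share regulatory elements.

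The homeobox itself is shown for the 5 family genes on which the results turn, because it encodes the homeodomain that these families have in common. The 180 bases were read from GENCODE M21 transcripts (GRCm38) and lie across exons 2 and 3 of the transcript in each of them. Capitals mark the stretch that encodes the conserved core of the third helix, which contacts DNA.
Dlx3 (chr11:95121767-95123456, plus strand): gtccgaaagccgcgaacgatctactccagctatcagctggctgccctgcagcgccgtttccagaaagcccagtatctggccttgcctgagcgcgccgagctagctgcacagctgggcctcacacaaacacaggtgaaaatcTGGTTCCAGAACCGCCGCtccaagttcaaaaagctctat
Dlx5 (chr6:6878441-6879657, minus strand): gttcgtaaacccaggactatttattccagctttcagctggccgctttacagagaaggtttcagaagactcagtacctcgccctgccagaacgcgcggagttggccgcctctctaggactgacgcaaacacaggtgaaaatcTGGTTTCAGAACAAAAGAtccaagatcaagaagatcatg
Dlx6 (chr6:6865140-6867088, plus strand): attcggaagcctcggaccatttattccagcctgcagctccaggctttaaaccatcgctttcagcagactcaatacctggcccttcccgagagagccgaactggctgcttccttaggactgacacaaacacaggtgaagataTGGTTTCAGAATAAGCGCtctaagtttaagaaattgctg
Prrx1 (chr1:163257901-163261977, minus strand): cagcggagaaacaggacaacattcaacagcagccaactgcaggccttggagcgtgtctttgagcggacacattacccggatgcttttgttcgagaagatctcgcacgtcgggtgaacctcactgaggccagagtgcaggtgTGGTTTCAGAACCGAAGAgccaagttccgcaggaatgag
Prrx2 (chr2:30878454-30879533, plus strand): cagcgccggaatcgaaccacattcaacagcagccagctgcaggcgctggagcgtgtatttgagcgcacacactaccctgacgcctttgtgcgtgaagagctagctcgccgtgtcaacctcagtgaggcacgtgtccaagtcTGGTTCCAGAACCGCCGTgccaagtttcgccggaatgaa

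Over these 180 bases, Prrx1 and Prrx2 were identical at 78.9% of positions, Dlx5 and Dlx6 at 73.3%, and Dlx3 and Dlx5 at 71.7%. Identical runs between annotated transcripts were compared for all 78 pairs of the 13 mouse genes of the ALX, DLX, MSX and PRRX families listed here. The longest was 47 bases, between Msx2 and Prrx1, so no pair shared a run of 50 bases, the length of 1 sequenced end. It was 19 bases for Prrx1 and Prrx2, 18 for Dlx5 and Dlx6 and 23 for Dlx3 and Dlx5. A sequenced end that matches 1 of these transcripts in full thus matches no transcript of another of the 13 genes on the same strand.

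The library totals behind the RPKM were 17505798 and 27983585 reads (vehicle), 21607344 and 19073347 reads (PTH), and 20285143 and 20742857 reads (YKL-05-093). Recovered reads of genes made up 99.7% of each. These totals are therefore not the sequencing depth, for which the study reports a larger mean number of read pairs. Levels are given as RPKM, the reads of a gene scaled to its length and to the total of its library. Genes entered the tests when 2 or more libraries reached 0.5 RPKM. The vehicle pair stood further apart than the others, with a median absolute log2 difference between replicates of 0.333, against 0.108 for PTH and 0.103 for YKL-05-093. Of 6 osteocyte markers, 3 passed that filter, and Sost and Fgf23 stayed at or under 3 reads in every library, whereas all 6 osteoblast markers passed. The summed osteocyte markers, most of which was Pdpn, spanned 55.7 to 73.3 RPKM in vehicle, 165 to 176 RPKM with PTH and 98.4 to 99.1 RPKM with YKL-05-093, and the osteoblast markers 710 to 815, 822 to 999 and 859 to 1125 RPKM. Genes of 1 list went different ways. Mean Sp7 was 45.8, 11.6 and 26.0 RPKM in these conditions and mean Runx2 16.3, 7.45 and 12.1 RPKM, while mean Col1a1, Ibsp, Alpl and Bglap were higher with both treatments. Col1a1 libraries overlapped with vehicle for both treatments, and Bglap libraries did for YKL-05-093. Mean Dmp1 was 0.899, 0.706 and 0.433 RPKM, with overlap between PTH and vehicle, while mean Pdpn and Phex were higher with both. Markers of other lineages were low, and some moved with treatment. In vehicle, PTH and YKL-05-093, chondrocyte markers (2 of 5 above the filter, Acan at or under 3 reads throughout) summed to 2.01 to 2.62, 3.43 to 3.46 and 3.52 to 3.69 RPKM, and Col2a1 rose with PTH (1.30, limma adjusted p = 0.0147). Endothelial markers (1 of 5, Cdh5 at or under 3 reads) summed to 0.820 to 1.29, 1.34 to 1.58 and 2.08 to 2.34 RPKM, and Kdr rose with YKL-05-093 (1.42, limma adjusted p = 0.0377). When 1 library was left out, these log2 fold changes were 1.23 to 1.37 for Col2a1 and 1.29 to 1.54 for Kdr. Adipocyte markers (1 of 5) summed to at most 2.32 RPKM, with overlap between the conditions. Glia and neural crest (0 of 4), muscle (0 of 4) and haematopoietic markers (0 of the 4 listed) summed to at most 0.636, 0.296 and 0.156 RPKM. The part of any of these in the results was not tested, and in bulk RNA fewer cells of a type and less RNA per cell cannot be told apart.

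In vehicle the 9 genes spread widely, and they formed a high, a middle and a near-silent group. Prrx1 was the highest, at 96.2 ± 25.5 RPKM (SD, n = 2), above 97.6% of all genes with any read, and Prrx2 was next at 37.2 ± 3.69 RPKM. Dlx3 had 5.27 ± 0.643 RPKM and Dlx5 had 4.26 ± 0.561 RPKM. Dlx6 (2.74 ± 0.427 RPKM) and Msx1 (2.65 ± 0.273 RPKM) overlapped each other. Msx2 (0.0858 ± 0.121 RPKM), Alx4 (0.0571 ± 0.00257 RPKM) and Alx1 (0.0429 ± 0.0364 RPKM) overlapped each other and did not reach the filter in any condition. The other DLX genes ranked below Msx1, with Dlx1 at 1.21 RPKM, and with Dlx2 at 0.954 RPKM and Dlx4 at 0.868 RPKM, whose libraries overlapped.

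**Figure D1:**
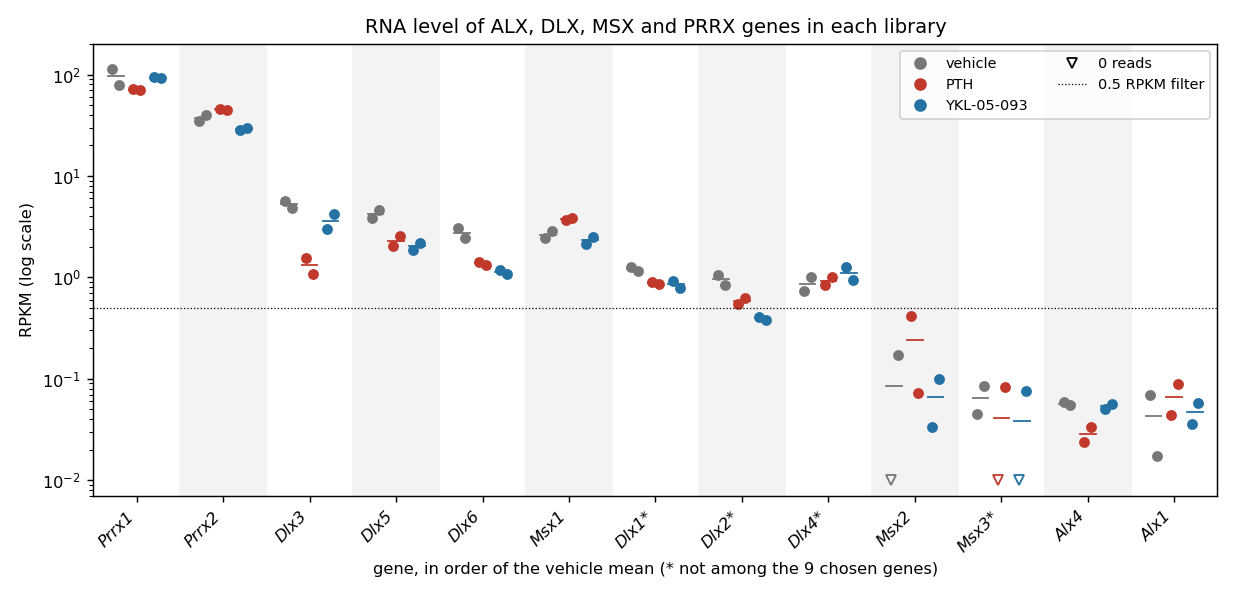
RPKM of 13 genes of the 4 families in each library, on a log axis, in order of the vehicle mean; points are libraries, bars are means of 2, and open triangles are libraries with 0 reads. Prrx1 and Prrx2 lie at 28.2 RPKM or more in every library, and Dlx3, Dlx5 and Dlx6 between 1.07 and 5.73 RPKM.

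Against vehicle, the 3 DLX members were lower in both PTH libraries, Dlx3 by the most, while Msx1 and Prrx2 were higher and Prrx1 lower without overlap. Of the 9 genes, 6 could be tested, and 1, Dlx3, passed the call rule of an adjusted p under 0.05 and more than 2-fold (limma on log2(RPKM + 0.1)), where 1.91% of all 14261 tested genes passed (1.09% higher and 0.813% lower). It was also the 1 member with an adjusted p under 0.05 at any fold, where 2.19% of tested genes had one. Libraries did not overlap for 2 members that were higher, beside 19.1% of all tested genes, and 4 that were lower, beside 24.0%. The median log2 fold change of the 6 members was -0.64, beside -0.03 over all tested genes. Since the members were chosen with these values known, nothing is read from these counts.

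With YKL-05-093, Dlx5 and Dlx6 were again lower than in vehicle, while Dlx3 was between vehicle and PTH and Msx1 and Prrx1 overlapped with vehicle. None of the 6 members passed the call rule with limma, where 0.666% of 14255 tested genes passed (0.393% higher and 0.274% lower). An unadjusted p under 0.05 was reached by 3 members (Dlx3, Dlx5 and Dlx6), beside 1236 of the 14255 tested genes. With voom on the recovered reads 0 passed, beside 96 of 14255. With all 6 libraries in 1 fit, 2 members passed, Dlx5 and Dlx6, beside 173 of 14264. Libraries did not overlap for 4 members that were lower, beside 22.1% of all tested genes, and 0 that were higher, beside 15.7%. The member median was -0.45, beside -0.04 over all tested genes.

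Taken directly against YKL-05-093, PTH gave lower Dlx3 and Prrx1 and higher Msx1 and Prrx2. Dlx3 alone passed the call rule, where 1.21% of 14255 tested genes passed (0.737% higher and 0.47% lower), and 4 members (Dlx3, Prrx1, Prrx2 and Msx1) had an adjusted p under 0.05 without the fold limit, where 9.97% of tested genes did. Libraries did not overlap for 3 members that were higher with PTH, beside 26.3% of all tested genes, and 2 that were lower, beside 23.7%. This comparison does not use the vehicle libraries. The member median was 0.22, beside 0.01 over all tested genes.

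**Figure D2:**
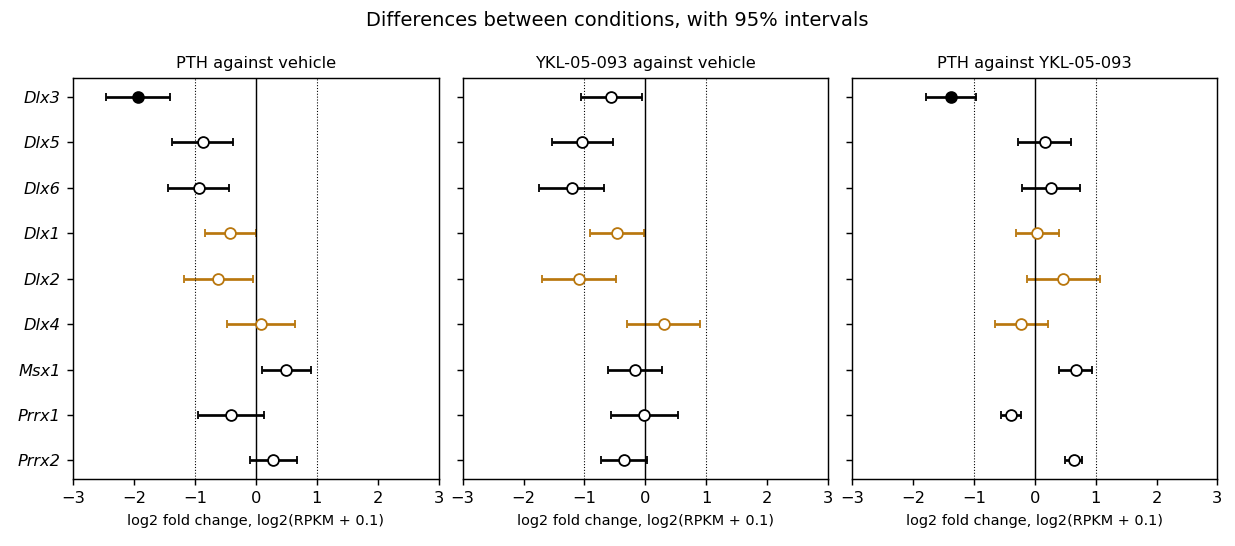
Log2 fold change on the log2(RPKM + 0.1) scale with 95% intervals for 9 tested genes of the families in the 3 comparisons; black marks members, orange marks relatives outside the 9, filled points passed the call rule, and dotted lines mark 2-fold. Dlx3 is the 1 filled gene, at -1.94 for PTH against vehicle and -1.38 for PTH against YKL-05-093.

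Dlx3 (ENSMUSG00000001510, chr11:95120119-95125296, plus strand, GRCm38), a factor of osteoblasts, teeth and hair, had 5.73 and 4.82 RPKM in vehicle, 1.56 and 1.07 RPKM with PTH and 2.99 and 4.17 RPKM with YKL-05-093, from 264, 355, 89, 54, 160 and 228 reads. No library of one condition overlapped with another, and the order was vehicle, then YKL-05-093, then PTH. Its mean with PTH was 25.0% of vehicle, a log2 fold change of -1.94 (SE 0.22, 95% interval -2.46 to -1.41). With YKL-05-093 it was 68.0% of vehicle, -0.56 (SE 0.21, -1.06 to -0.06). PTH against YKL-05-093 gave -1.38 (SE 0.19, -1.79 to -0.97). Over the 4 fits that each left out 1 library, its log2 fold change for PTH against vehicle was -2.19 to -1.69. That call ended without the filter on low values, where 0 of 25085 genes passed. For PTH against YKL-05-093, leaving out 1 library gave -1.63 to -1.13. This call ended with a pseudocount of 1 (98 of all genes passed), without the filter (149) and with the variance trended on the mean value (137).

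Dlx5 (ENSMUSG00000029755, chr6:6877805-6882085, minus strand), a DLX factor of early osteoblasts, had 3.86 and 4.66 RPKM in vehicle, 2.02 and 2.55 RPKM with PTH and 1.87 and 2.17 RPKM with YKL-05-093. Both treatments lay below vehicle in each library and overlapped with each other. The log2 fold change was -0.87 (SE 0.21, -1.38 to -0.37) with PTH and -1.03 (SE 0.21, -1.53 to -0.54) with YKL-05-093. Between the treatments it was 0.16 (SE 0.21), with an interval of -0.28 to 0.60.

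Dlx6 (ENSMUSG00000029754, chr6:6863334-6868568, plus strand), the neighbour of Dlx5, had 3.04 and 2.44 RPKM in vehicle, 1.41 and 1.34 RPKM with PTH and 1.18 and 1.07 RPKM with YKL-05-093. Vehicle was highest and YKL-05-093 lowest, with no overlap among the 3 conditions. Its log2 fold change was -0.94 (SE 0.21, -1.44 to -0.44) with PTH and -1.21 (SE 0.22, -1.74 to -0.68) with YKL-05-093. The direct difference, 0.27 (SE 0.23), had an interval of -0.21 to 0.75. These values rest on 40 to 123 reads, against 54 to 185 for Dlx5.

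Dlx6 and Dlx5 lie 9236 bases apart on chromosome 6 and run towards each other, and the ratio of Dlx5 to Dlx6 spanned 1.27 to 2.03 over the 6 libraries, with the 2 vehicle libraries at 1.27 and 1.91. Exons of Dlx6os2 overlap Dlx6 on the opposite strand, and the use of strand in counting was not stated. Dlx6os2 itself had 0 to 2 reads. How reads in such an overlap were counted is not given, so that number does not show whether Dlx6 was affected. Dlx6os1 is an antisense RNA that overlaps Dlx6 without sharing exon bases, and it was looked up after the values of Dlx6 were seen. Dlx6os1 had 0.778 and 0.607 RPKM in vehicle, 0.405 and 0.295 RPKM with PTH and 0.459 and 0.386 RPKM with YKL-05-093. It did not pass the test (limma adjusted p = 0.149 for PTH and 0.44 for YKL-05-093).

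Dlx3 also has a converging neighbour. Dlx4, 15150 bases from Dlx3 on chromosome 11, had 0.737 and 0.999 RPKM in vehicle, 0.839 and 0.998 RPKM with PTH and 1.26 and 0.933 RPKM with YKL-05-093, so all 3 conditions overlapped. Its log2 fold change was 0.08 with PTH (SE 0.24, limma adjusted p = 0.924) and 0.30 with YKL-05-093 (SE 0.25, adjusted p = 0.846), and the ratio of Dlx3 to Dlx4 went from 7.77 and 4.82 in vehicle to 1.86 and 1.08 with PTH and 2.38 and 4.47 with YKL-05-093. The value for PTH ranged from -0.11 to 0.28 when 1 library was left out. Exons of the antisense gene Dlx4os (listed as A730090H04Rik) overlap those of Dlx4, and it had 0 to 3 reads. The effect of that overlap on Dlx4 was not tested.

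Dlx1 and Dlx2, factors of forebrain and jaw that lie 9426 bases apart on chromosome 2, were lower in every treated library than in vehicle, and neither passed the test. Dlx1 had 1.26 and 1.17 RPKM in vehicle, 0.905 and 0.858 RPKM with PTH and 0.918 and 0.789 RPKM with YKL-05-093 (log2 fold change -0.42, adjusted p = 0.378, and -0.46, adjusted p = 0.547, limma). Dlx1os, an antisense gene whose exons overlap those of Dlx1, had 2 to 8 reads against 87 to 174 for Dlx1, and the effect of the overlap was not tested. Dlx2 had 1.06 and 0.848 RPKM in vehicle, 0.541 and 0.631 RPKM with PTH and 0.407 and 0.381 RPKM with YKL-05-093 (-0.62, adjusted p = 0.333, and -1.09, adjusted p = 0.186). Summed over all 6 DLX genes, vehicle had 15.7 and 14.9 RPKM, PTH 7.28 and 7.45 RPKM and YKL-05-093 8.63 and 9.52 RPKM. The make-up of that sum differed, with Dlx3 at 36.5% and 32.3% of it in vehicle, 21.5% and 14.4% with PTH and 34.7% and 43.8% with YKL-05-093.

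**Figure D3:**
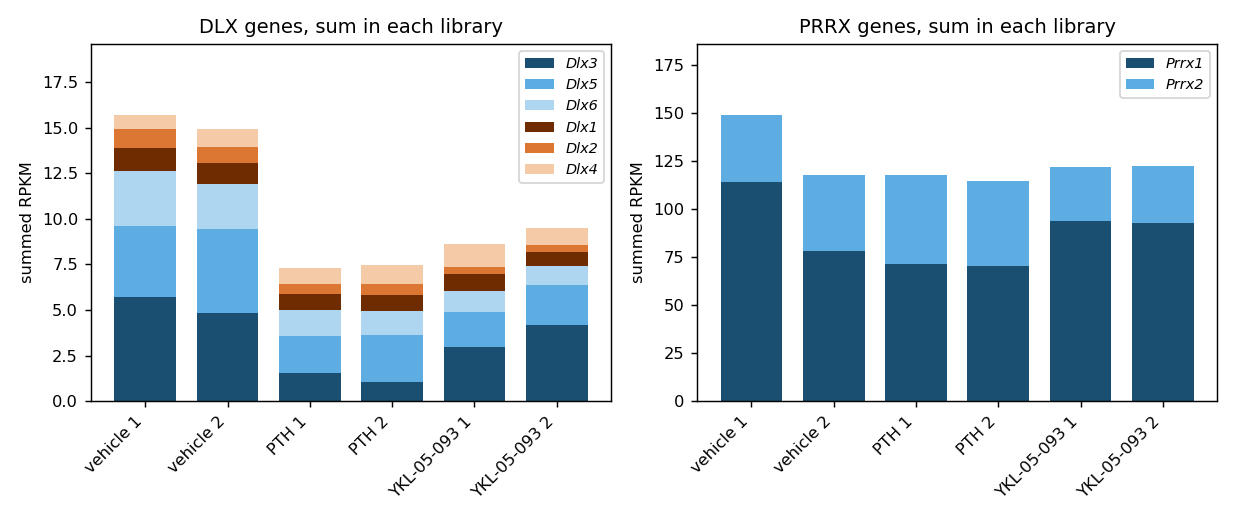
Summed RPKM of the 6 DLX genes (left) and of Prrx1 and Prrx2 (right) in each library, as stacked bars by gene. DLX sums are 14.9 and 15.7 RPKM in vehicle and 7.28 to 9.52 RPKM in treated libraries, and PRRX sums are 118 and 149 RPKM in vehicle and 115 to 123 RPKM in treated libraries.

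Msx1 (ENSMUSG00000048450, chr5:37820485-37824583, minus strand), a factor of undifferentiated mesenchyme and a known target of BMP signals, had 2.45 and 2.84 RPKM in vehicle, 3.66 and 3.88 RPKM with PTH and 2.15 and 2.52 RPKM with YKL-05-093. PTH libraries were the highest, and YKL-05-093 overlapped with vehicle. The log2 fold change was 0.50 (SE 0.17, 0.10 to 0.90) with PTH, -0.17 (SE 0.19, -0.61 to 0.27) with YKL-05-093 and 0.67 (SE 0.13, 0.40 to 0.95) for PTH against YKL-05-093. Msx1 was below Dlx5 in both vehicle libraries, at 0.636 and 0.610 of its level, and above it with PTH, at 1.81 and 1.52 times, and with YKL-05-093, at 1.15 and 1.16 times.

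Its paralog Msx2 (chr13:53466884-53473074, minus strand) was close to the limit of detection, with 0 and 7 reads in vehicle, 13 and 2 with PTH and 1 and 3 with YKL-05-093, the smallest whole numbers that its values allow. The replicates of PTH differed more than the conditions did. Pooled over the libraries, the ratio of PTH to vehicle was 2.40 with a 95% counting interval of 0.920 to 6.95, and that of YKL-05-093 to vehicle was 0.634 (0.136 to 2.49). That of PTH to YKL-05-093 was 3.78 (1.20 to 15.7), from 15 reads, 13 of them in 1 library, against 4. These intervals cover counting error only. Msx3 had 0 to 3 reads in each library.

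Prrx1 (ENSMUSG00000026586, chr1:163245119-163313710, minus strand), a marker of limb mesenchyme and skeletal progenitors, had 114 and 78.1 RPKM in vehicle, 71.6 and 70.2 RPKM with PTH and 93.6 and 92.7 RPKM with YKL-05-093. The vehicle libraries were further apart than any treated pair, and the second lay closer to PTH than to its own replicate. Its log2 fold change was -0.41 with PTH (SE 0.23, -0.96 to 0.13) and -0.02 with YKL-05-093 (SE 0.23, -0.57 to 0.53). PTH against YKL-05-093, without the vehicle libraries, gave -0.39 (SE 0.08, -0.55 to -0.23).

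Prrx2 (ENSMUSG00000039476, chr2:30834972-30881251, plus strand), which overlaps with Prrx1 in expression and function in limb mesenchyme, had 34.6 and 39.8 RPKM in vehicle, 46.2 and 44.4 RPKM with PTH and 28.2 and 30.0 RPKM with YKL-05-093. PTH was highest and YKL-05-093 lowest, with no overlap. The log2 fold changes were 0.29 (SE 0.17, -0.10 to 0.68) with PTH, -0.35 (SE 0.16, -0.73 to 0.03) with YKL-05-093 and 0.64 (SE 0.07, 0.49 to 0.78) between them. The ratio of Prrx1 to Prrx2 was 1.55 and 1.58 with PTH and 3.31 and 3.09 with YKL-05-093, while the vehicle libraries lay at 3.30 and 1.96.

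The chosen ALX genes, Alx1 and Alx4, were near silent in every library. Alx1 (chr10:102998707-103030215, minus strand) had 5 and 2 reads in vehicle, 4 and 7 with PTH and 3 and 5 with YKL-05-093. Exons of Gm17028 overlap those of Alx1 on the same strand, and how reads in such an overlap were counted is not given. Alx4 (chr2:93642384-93681339, plus strand) had 8 and 12, 4 and 5, and 8 and 9 reads. The ratio of pooled reads of PTH to vehicle was 1.76 for Alx1 (95% counting interval 0.622 to 5.35) and 0.503 for Alx4 (0.202 to 1.16), so a difference was not detectable at this depth.

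Other homeobox genes of mesenchyme were tested as a list of 36, of which 26 passed the filter. With PTH, 2 fell and 0 rose, the Iroquois genes Irx5 (log2 fold change -1.11, limma adjusted p = 0.0179) and Irx3 (-1.06, adjusted p = 0.0184), factors of limb and heart patterning. Irx3 had 28.0 and 26.8 RPKM in vehicle, 13.4 and 12.8 RPKM with PTH and 18.7 and 21.5 RPKM with YKL-05-093, so the 3 conditions did not overlap. Over all tested genes, 0.813% were called lower and 1.09% higher with PTH. The list median was -0.19, beside -0.03 for all genes. With YKL-05-093, 0 of the 26 passed with limma or voom and 4 had an unadjusted p under 0.05, beside 1236 of 14255 tested genes. For PTH against YKL-05-093, 0 passed with either and 9 had an unadjusted p under 0.05, beside 3178 of 14255. When 1 library was left out, the values for PTH against vehicle were -1.21 to -1.01 for Irx5 and -1.10 to -1.03 for Irx3.

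Among 10 bone genes that DLX and MSX factors are known to bind or act on, 3 passed with PTH, beside 1.91% of all tested genes. Sp7 (osterix), the zinc-finger factor of osteoblast commitment, had 46.0 and 45.5 RPKM in vehicle, 12.2 and 11.1 RPKM with PTH and 22.4 and 29.6 RPKM with YKL-05-093. It fell with PTH by 1.97 on the log2 scale (SE 0.16, limma adjusted p = 0.00189), and the value for YKL-05-093 was -0.83 (SE 0.19, adjusted p = 0.159). The direct difference was -1.14 (SE 0.10, adjusted p = 1.45e-06), and -1.34 to -0.94 when 1 library was left out. Bglap and Bglap2, near-identical osteocalcin genes whose reads may be split between them, rose with PTH (1.58, adjusted p = 0.0283, and 1.49, adjusted p = 0.0279). With YKL-05-093, 0 of the 10 passed with limma or voom, and 3 had an unadjusted p under 0.05, beside 1236 of 14255 tested genes. Runx2, the master factor of the osteoblast lineage, had 19.5 and 13.0 RPKM in vehicle, 7.87 and 7.02 RPKM with PTH and 11.6 and 12.6 RPKM with YKL-05-093, and did not pass with limma (-1.09, adjusted p = 0.0624, for PTH), whereas voom on the recovered reads called it. Runx2 is named here for its role and after its values were seen.

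Of 20 other mesenchyme factors, 17 were tested. Snai1, a repressor of epithelial genes, rose with PTH (1.40, limma adjusted p = 0.0264) and had 1.52 and 1.19, 3.32 and 4.15, and 2.89 and 2.68 RPKM in vehicle, PTH and YKL-05-093. Lef1, the transcriptional partner of beta-catenin, rose with PTH (1.24, adjusted p = 0.00995) and was higher than with YKL-05-093 (1.51, adjusted p = 7.05e-08). Snai2, a relative of Snai1, fell with YKL-05-093 (-1.19, adjusted p = 0.034) and had 27.2 and 23.4, 15.7 and 17.8, and 11.4 and 10.6 RPKM. These were the calls of the list against vehicle, beside 1.91% of all tested genes with PTH and 0.666% with YKL-05-093. When 1 library was left out, the values for PTH were 1.24 to 1.56 for Snai1 and 1.20 to 1.29 for Lef1. For Snai2 with YKL-05-093 they were -1.30 to -1.08. Between the treatments 3 passed, Lef1 and, named after their values were seen, Scx (-1.09, adjusted p = 8.35e-06) and Gli1 (-1.58, adjusted p = 3e-05), which were lower with PTH. Over all tested genes, 1.21% passed in that comparison. Leaving out 1 library gave 1.49 to 1.54 for Lef1, -1.22 to -0.97 for Scx and -1.71 to -1.45 for Gli1. Of the 7 partners and corepressors of DLX and MSX proteins, 0 passed in any comparison with limma or voom. An unadjusted p under 0.05 was reached by 1, 1 and 2 of them, beside 1897, 1236 and 3178 of all tested genes. Maged1, which binds DLX5 and MSX proteins, stayed between 113 and 126 RPKM in all 6 libraries, and Pias1, a binding partner of MSX1, between 8.87 and 11.8 RPKM.

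Because DLX, MSX and ALX genes respond to BMP signals in embryonic mesenchyme, 14 genes of BMP output and feedback were read as well, 12 of them tested. With YKL-05-093, 4 fell and 0 rose: Atoh8 (-2.12, limma adjusted p = 0.00881), Id1 (-2.11, adjusted p = 0.0304), Id3 (-1.68, adjusted p = 0.0242) and Id2 (-1.20, adjusted p = 0.0318), the Id genes being direct BMP-SMAD targets. Over all tested genes, 0.274% were called lower and 0.393% higher with YKL-05-093. The list median was -1.08, beside -0.04 for all genes. With PTH, 1 passed with limma, Bmp2, a BMP ligand (-1.15, adjusted p = 0.0165), which lies outside the naming rule and was named after its values were seen. Voom called 2, Bmp2 and Id3, and limma gave Id3 -1.04 with PTH (adjusted p = 0.0507). Over all tested genes, 1.91% passed with limma for PTH, and 287 of 14261 with voom. Bmp2 had 7.78 and 6.88 RPKM in vehicle, 3.39 and 3.11 RPKM with PTH and 3.73 and 3.69 RPKM with YKL-05-093. Id1 had 3.49 and 5.19 RPKM in vehicle, 3.89 and 4.22 RPKM with PTH and 1.04 and 0.787 RPKM with YKL-05-093, and was higher with PTH than with YKL-05-093 (2.04, adjusted p = 4.01e-06), as was Atoh8 (1.69, adjusted p = 9.49e-07). When 1 library was left out, these differences were 1.86 to 2.23 for Id1 and 1.60 to 1.78 for Atoh8. The values for YKL-05-093 against vehicle were then -2.39 to -1.83 for Id1 and -1.26 to -1.13 for Id2. They were -1.91 to -1.44 for Id3 and -2.21 to -2.03 for Atoh8.

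**Figure D4:**
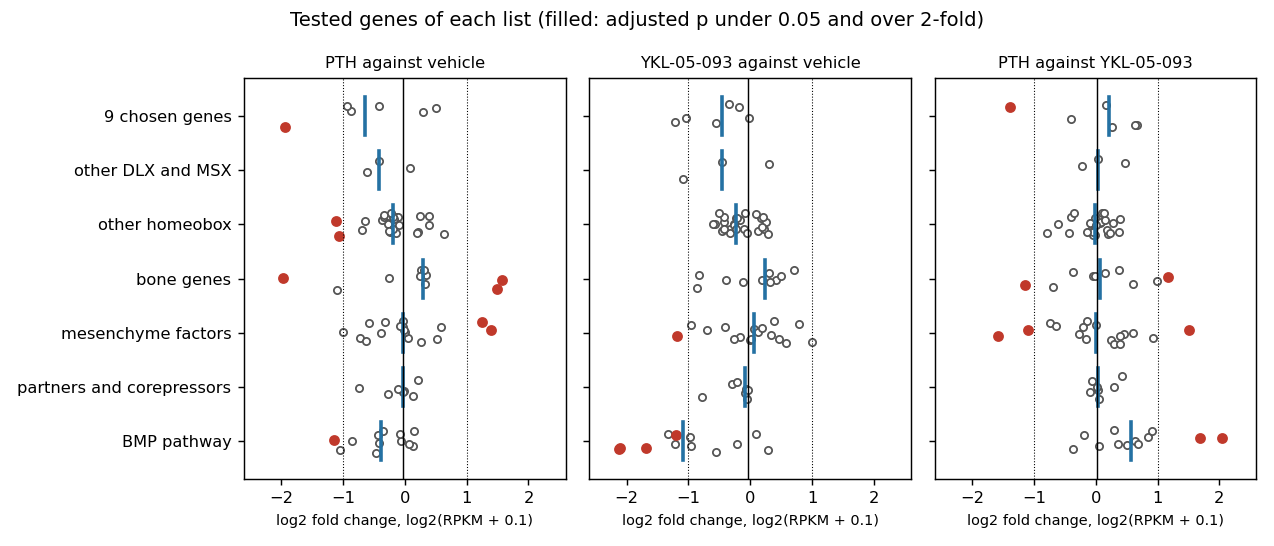
Log2 fold change of every tested gene of the lists in the 3 comparisons; red points passed the call rule, blue bars are list medians, the black line is the median of all tested genes, and dotted lines mark 2-fold. The BMP pathway list has its median at -1.08 with YKL-05-093, and the 9 chosen genes hold 1 red point, Dlx3, in each comparison that includes PTH.

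Genes whose pattern over the 6 libraries was closest to that of Dlx3 and of Dlx6, the members with the largest difference from vehicle for PTH and for YKL-05-093, were sought by Euclidean distance between log2 values centred on vehicle, over the 11885 tested genes whose mean was 50 reads or more. Closest to Dlx3 were Dtx4, a Deltex ubiquitin ligase of the Notch pathway (distance 0.283), Sp7 (0.492) and Murc, a caveolar coat protein of muscle (0.528). Dtx4 had 4.85 and 4.18 RPKM in vehicle, 1.10 and 0.847 RPKM with PTH and 2.72 and 3.57 RPKM with YKL-05-093. The genes were picked for this likeness over the same 6 libraries, so a shared order of the conditions follows from the choice. Closest to Dlx6 were Mical2, an enzyme that oxidises actin (0.197), Il17rd, an inhibitor of FGF signalling (0.231), and Tfrc, the transferrin receptor (0.276). Il17rd had 2.73 and 1.84 RPKM in vehicle, 1.13 and 1.09 RPKM with PTH and 1.08 and 0.905 RPKM with YKL-05-093.

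**Figure D5:**
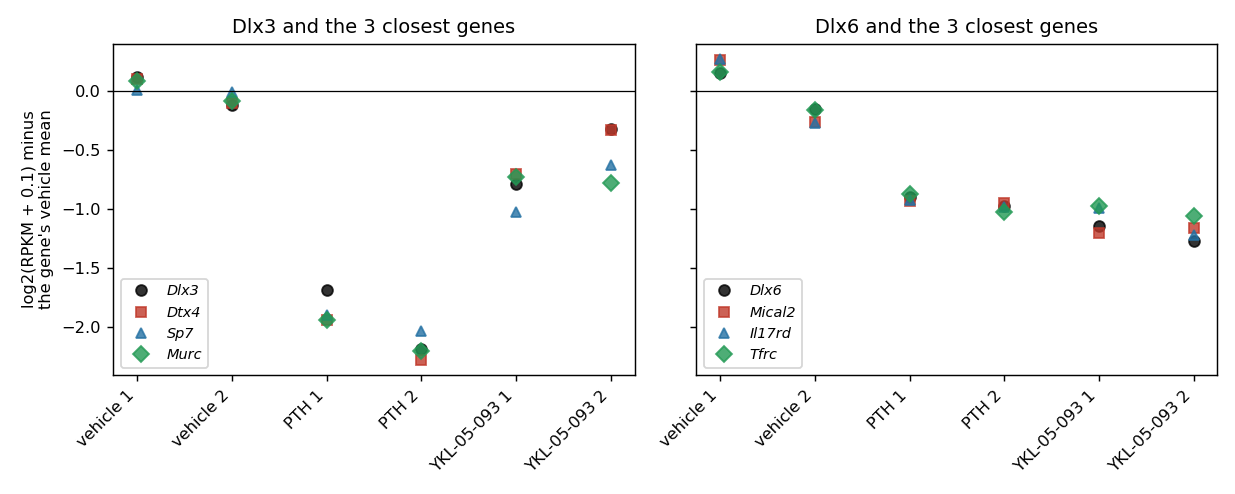
Log2(RPKM + 0.1) of Dlx3 (left) and Dlx6 (right) and of the 3 genes closest to each, minus the vehicle mean of the gene, in each of the 6 libraries. Around Dlx3 the PTH libraries are lowest and YKL-05-093 lies between them and vehicle, and around Dlx6 the 2 treatments lie close together below vehicle. The genes were picked for this likeness.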

How the data were processed

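RNA-seq libraries (2 each for vehicle, PTH and YKL-05-093) were made from RNA depleted of ribosomal RNA with a directional kit. The authors used STAR for alignment (mm10/GRCm38) and HTSeq with an Ensembl annotation for counting, and deposited RPKM values, on a linear scale and with no scaling between libraries. The submitters' processing notes also name CASAVA 1.7. How gene length was taken and whether counting used the strand is not given in the sources used here.

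The whole reads behind each RPKM were recovered from the steps between values, for 26214 of 26214 genes above 0 (tolerance 0.002 reads), and summed to 99.7% of the library totals. For genes with few reads the smallest whole numbers were taken, which a multiple would also satisfy. They gave the library totals, the counting intervals (95%, exact, from the conditional binomial) and the floor of 3 reads, which for a gene of 2000 bases is 0.0536 to 0.0857 RPKM. Groups came from the sample titles.

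limma 3.58.1 in R 4.3.3 was fitted to log2(RPKM + 0.1), which understates the change of low genes, for the genes that reached 0.5 RPKM in 2 or more libraries, with the 4 libraries of each comparison, the prior variance trended on recovered reads, and Benjamini-Hochberg adjustment over all tested genes. A call needed an adjusted p under 0.05 and more than 2-fold. An exact permutation test of 2 against 2 libraries cannot go below 0.333. The scripts were tested on simulated data. Alternatives were other pseudocounts, filters, variance trends and scalings, voom on the recovered reads, 1 fit of all libraries, a replicate block and leaving out each library. Leaving out 1 library leaves 1 in its condition, so only the effect sizes of those fits are given. The identifiers of 37693 of the 39179 genes (96.2%) were found in GENCODE M21, which gave positions, and the homeoboxes came from its transcripts.

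The members and all gene lists (relatives, other homeobox genes, bone genes, mesenchyme factors, partners and corepressors, BMP pathway, and cell type markers) were chosen with earlier results of these data known, so none gives independent support. Named were all members and relatives, up to 4 called genes of each list by size of change against vehicle (or the 2 highest where none was called), and the 3 genes closest to Dlx3 and to Dlx6. Some genes of these lists are not reported here. Genes outside this rule are said to be so where they appear.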

Additional observations from a re-analysis of the deposited data

How the results depend on the processing

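Dlx3 kept its direction under every alternative run. Of the 9 genes, the count called was 1 for PTH against vehicle (0 without the filter, beside 0 of all genes). For YKL-05-093 against vehicle it was 0 (2 with all 6 libraries in 1 fit, beside 173 of all genes). For PTH against YKL-05-093 it was 1. There it was 0 with a pseudocount of 1, without the filter or with the spread trended on the mean value, beside 98, 149 and 137 of all genes. By adjusted p alone it was 4, beside 1421. Of the other listed genes, 8, 5 and 7 were called, beside 272, 95 and 172 of all tested genes. Without the filter these were 0 in both comparisons with vehicle, as over all genes. With the spread on the mean value they were 4 and 0, beside 160 and 6 of all genes. By adjusted p alone they were 28 for PTH against YKL-05-093. The cause of these changes was not tested.

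Same-numbered libraries deviated with correlations of -0.034, -0.054 and -0.049, so these values gave no sign that the replicate numbers pair the libraries. They cannot exclude pairing, because the mitochondrial share of the library total was higher in the second library of every condition. Whether the libraries of a number were handled together was not tested. With the replicate number as a block, 1, 2 (Dlx5 and Dlx6) and 1 of the 9 genes and 11, 7 and 7 of the others were called, beside 440, 215 and 196 of all tested genes.

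Values near 0 changed sign. With median-ratio scaling, Maged1 stood at 0.025 with PTH and 0.00018 with YKL-05-093, and Pias1 at 0.022 with YKL-05-093. When 1 library was left out, the values for PTH ranged from -0.11 to 0.28 for Dlx4, -0.048 to 0.023 for Maged1, -0.32 to 0.087 for Pias1 and -0.35 to 0.21 for Id1. Those for YKL-05-093 ranged from -0.12 to 0.021 for Maged1 and -0.23 to 0.18 for Pias1, and those for PTH against YKL-05-093 from -0.053 to 0.14 for Dlx1 and -0.033 to 0.11 for Maged1. Alx1, Alx4, Msx2 and Msx3 were too shallow for a test.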
